A study of Homo sapiens with 5 samples.

Results

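The mRNAs described here encode 10 proteins of the H3K4 methyltransferase complexes, and they were followed through RIPseq of CBFB and of hnRNPK. The genes were chosen by name: KMT2A, KMT2B, KMT2C, KMT2D, KMT2E, SETD1A and SETD1B, which carry a SET domain, and the non-catalytic subunits WDR5, ASH2L and MEN1. The rule uses names and no measured value, but the genes were proposed with earlier results of these data known. All 10 were found among the 56632 gene identifiers of the tables, KMT2B under an older identifier (ENSG00000105663) that was recognised by its transcripts, and all 10 were among the 11764 genes analysed, whose FPKM averaged 1 or more across the libraries.

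RIPseq recovers the RNA that comes down with a protein in an immunoprecipitation and sequences it beside the input, which is RNA from like cells taken before any pulldown. The cells were MCF10A, an established, non-tumorigenic line of human breast epithelium, grown without treatment and below 20 passages. A stable line made from MCF10A and expressing FLAG-tagged CBFB gave 1 input library and 1 RIP library with a FLAG antibody. Parental MCF10A gave 1 input library and 2 RIP libraries with an hnRNPK antibody. The labels do not say whether the FLAG-CBFB line is a single clone or how its transgene is driven, and no mock immunoprecipitation was analysed here. For its protein pulldowns the study describes FLAG-tagged CBFB put by lentivirus into MCF10A cells with CBFB knocked out. Whether the RIPseq line likewise lacks endogenous CBFB is not said, so differences between the inputs cannot be told apart from a difference in CBFB. Nothing says that the hnRNPK repeats came from separate cultures, so the p-values below measure the spread between these samples, which may be technical.

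Trimethylation of lysine 4 on histone H3 marks active promoters and monomethylation marks enhancers. The enzymes that place these marks work in large complexes, each built on a SET domain protein that sits on a shared platform of WDR5, RBBP5, ASH2L and DPY30. KMT2A and KMT2B work with menin, the product of MEN1, mainly at promoters, KMT2C and KMT2D work mainly at enhancers, and SETD1A and SETD1B account for much of the trimethylation at active promoters. CBFB is known as the partner of the RUNX transcription factors, and hnRNPK is an RNA-binding protein whose KH domains prefer runs of C.

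Because hnRNPK prefers C-rich RNA, the most C-rich stretch of 30 nt in the coding sequence is shown first for 8 of the mRNAs, 5′ to 3′, with runs of 4 or more C in capitals. The sequences come from the GENCODE 29 transcripts (GRCh38). They are descriptions of the mRNAs and not binding sites, since RIPseq does not place a protein along a transcript.
KMT2D: cctgCCCCgCCCCCagccctgCCCCagccc
SETD1B: CCCCCCCagccaCCCCCaCCCCCacctccc
SETD1A: cctCCCCCtCCCCCgccgcctcctcctccc
KMT2E: CCCCCaccaCCCCCtccgccgccaccttcc
MEN1: caccttccagcccagCCCCgCCCCCgaccc
KMT2A: cggCCCCggggcgCCCCCCtCCCCCCCggc
KMT2C: ctCCCCCtgcctcaccacccatcgccttcc
WDR5: cacagccaaCCCCttcgtcatccgccactc

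All of these stretches are coding. That of KMT2D lies in exon 11 of 54 on the minus strand of chr12:49050254-49050283, and that of SETD1B in exon 12 of 17 at chr12:121823338-121823367. The SETD1A stretch is in exon 8 of 19 at chr16:30965700-30965729. In KMT2E the stretch falls in the last exon, 27 of 27, at chr7:105112899-105112928. The first exons of MEN1 (of 9, minus strand, chr11:64809898-64809927) and of KMT2A (of 36, chr11:118436659-118436688) hold theirs. KMT2C has its stretch in exon 52 of 59 on the minus strand (chr7:152148999-152149028) and WDR5 in exon 2 of 14 (chr9:134139921-134139950). The number of C in 30 nt was 24 for SETD1B, 23 for SETD1A, 22 for KMT2E, 21 for KMT2D, 20 for KMT2A and MEN1, 19 for KMT2C and 16 for WDR5. Of 10557 analysed coding genes with a transcript model, 99.8% had a lower maximum than SETD1B and 47.9% a lower one than WDR5. The SET domain mRNAs shown, from KMT2C at 84.4% upward, and MEN1 at 91.2% were in the upper part of the range. A longer coding sequence offers more stretches to choose from. Those of the SET domain mRNAs shown had 5124 to 16614 nt, against a median of 1371 nt over the coding genes. The part of length in this ranking was not tested.

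The libraries held 69786576 to 106855647 expected counts. Mitochondrial transcripts took 4.27% and 11.2% of the inputs, 62.2% of the FLAG-CBFB RIP and 84.5% and 86.6% of the hnRNPK RIPs, and FPKM is scaled to all fragments of a library, these included. Enrichment was taken as the log2(FPKM + 1) of a RIP minus that of its own input. It was centred on the mean of this difference over the analysed genes, which was -1.34 for CBFB and -2.61 and -2.68 for the hnRNPK repeats before centring. A centred value of 2, that is 4-fold above the average gene, was the threshold for calling a transcript enriched. The study's controls stood apart on this scale, with RUNX1 at 2.13 for CBFB and at 3.29 and 2.89 for hnRNPK, and GAPDH at -0.18, -2.66 and -2.72. The basal epithelial markers KRT5, KRT6A, KRT17, TP63, EGFR and CDH3 were expressed in both inputs, KRT14 was low at 6.78 and 1.81 FPKM, and of 5 markers of luminal hormone response, leukocytes and stroma found in the tables, PGR and COL1A2 were listed at 0 in both inputs and ESR1 was highest at 0.71 FPKM.

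The 10 mRNAs did not behave as one group. KMT2D, SETD1B and KMT2B passed 4-fold in both RIPs, and SETD1A, KMT2E and MEN1 passed it in the mean of the hnRNPK RIPs but not for CBFB. Calls near the threshold depended on the processing: with the other input KMT2B was at 1.88 for CBFB and KMT2E at 1.865 for hnRNPK, and on log2 CPM with TMM factors SETD1A passed for CBFB at 2.06 and KMT2A and KMT2C passed for hnRNPK at 2.08 and 2.24. KMT2A and KMT2C lay above the average analysed gene for hnRNPK and below it for CBFB, signs that turned for hnRNPK when the average was taken over all genes of the tables and for CBFB in KMT2C with the other input. On this FPKM scale WDR5 was below the average gene for both proteins, and ASH2L was below it for hnRNPK and close to it for CBFB. In numbers, 3 of 10 were above 2 for CBFB, where 4.37% of the 11764 analysed genes were, and 6 of 10 for hnRNPK, where 8.2% were. Both hnRNPK repeats were above 2 for 5 of 10, against 7.31% of analysed genes, and both proteins for 3 of 10, against 3.79%. The median of the 10 was 0.75 for CBFB and 2.14 for hnRNPK, beside -0.19 and -0.11 over all analysed genes. Above the average gene were 6 of 10 for CBFB and 8 of 10 for hnRNPK, against 35.1% and 46.8% of analysed genes. For KMT2C and SETD1B the sign of the centred hnRNPK value was set by the scale. With an FPKM of 0 in the RIP it would still be 0.30 and 0.35. These medians depend on the centring: without it both were below 0, at -0.59 and -0.50, and with centring over all genes of the tables they were -0.27 and 0.11. In either case 0 of 10 reached 2.

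**Figure D1:**
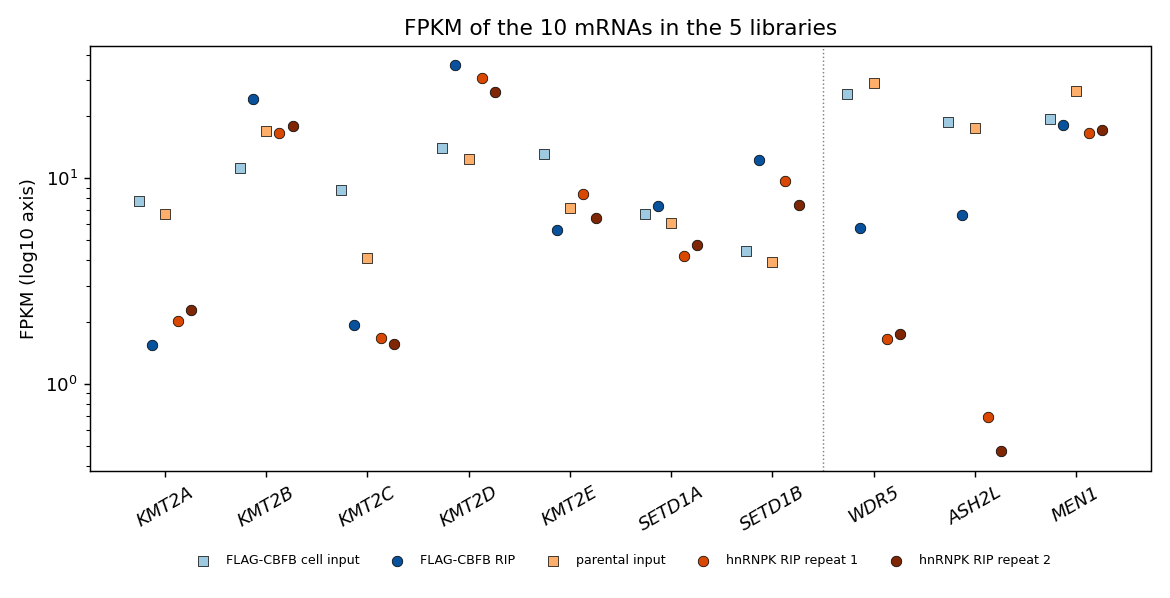
FPKM (log10 axis) of each of the 10 mRNAs in the 5 libraries, with inputs as squares and RIPs as circles and the SET domain genes left of the dotted line. KMT2D and SETD1B lay higher in every RIP than in either input, whereas KMT2A, KMT2C, WDR5, ASH2L and MEN1 lay lower in every RIP than in either input.

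As levels per length, the inputs and the RIPs ranked the mRNAs differently. In both inputs the non-catalytic WDR5, MEN1 and ASH2L had the highest FPKM (25.9, 19.4 and 18.9 in the FLAG-CBFB cells, and 29.1, 26.7 and 17.6 in the parental cells) and SETD1B the lowest (4.46 and 3.90). In all 3 RIPs KMT2D had the highest FPKM, at 35.5 with FLAG and 30.9 and 26.4 with hnRNPK. The lowest was KMT2A in the FLAG RIP (1.54) and ASH2L in the hnRNPK RIPs (0.69 and 0.47). These ranks depend on the abundance-weighted transcript length that enters FPKM. For KMT2D it was 5904 to 7079 nt over the libraries, 30.4% to 36.5% of its 19419 nt transcript model. As CPM of the counts outside the mitochondrial genes, the 7 SET domain genes together took 501 and 409 in the FLAG-CBFB and parental inputs, 1348 in the FLAG RIP, and 3051 and 2898 with hnRNPK. The 3 non-catalytic genes together took 173, 215, 191, 287 and 352 in the same order, a far smaller difference between RIP and input. This sum joins genes that moved apart with hnRNPK. From the parental input to the hnRNPK RIPs, counts outside the mitochondrial genes went from 61984255 to 15958095 and 12147530. Those of MEN1 went from 4396 to 3926 and 3720, of WDR5 from 5977 to 504 and 464, and of ASH2L from 2948 to 149 and 93.

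The hnRNPK RIP was the only arm with a repeat, so it was the only one tested. With edgeR's quasi-likelihood test on the expected counts, 24.6% of the 11764 genes were higher and 14.3% lower in hnRNPK RIP than in parental input, at a threshold of 0.05 on the p adjusted by Benjamini-Hochberg. Among the 10 genes, 8 were higher, ASH2L was lower and WDR5 passed in neither direction. The 7 SET domain genes were all higher, with log2 fold changes between 2.21 and 5.10. The fit takes its spread from the RIP repeats and assumes the lone input to vary as they do. Libraries were scaled on the bulk of the genes, so higher means relative to the other genes tested. Over all genes tested the median log2 fold change was -0.098, beside -0.12 for WDR5. Without centring, log2(FPKM + 1) fell from parental input to both hnRNPK RIPs for KMT2A (-1.35 and -1.23) and KMT2C (-0.93 and -0.99). It also fell for SETD1A (-0.44 and -0.30) and MEN1 (-0.65 and -0.61). It rose for KMT2D and SETD1B and went both ways for KMT2B and KMT2E.

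KMT2D, the enhancer methyltransferase, and its close relative KMT2C, which shares its complex partners, went apart. KMT2D (chr12:49018975-49059774, minus strand) had an FPKM of 14.1 in the FLAG-CBFB cell input and 35.5 in the FLAG RIP, and of 12.5 in the parental input against 30.9 and 26.4 after hnRNPK RIP. All 3 RIPs were above both inputs without any centring. Its CBFB enrichment was 2.61 (95% counting interval 2.58 to 2.65), above 97.3% of analysed genes, and its hnRNPK enrichment was 3.85 and 3.71, with a mean of 3.78 ± 0.10 (SD, n = 2), above 98.0%. The edgeR log2 fold change was 5.10 ± 0.40 (SE, adjusted p = 2.15e-08). Counting intervals here are exact and cover counting error only.

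KMT2C (chr7:152134922-152436005, minus strand) had an FPKM of 8.78 and 1.94 in the FLAG-CBFB cell input and RIP. In the parental input it had 4.09, and in the hnRNPK RIPs 1.68 and 1.56. Every RIP was below both inputs. Its centred CBFB enrichment was -0.39 (-0.48 to -0.31), and its hnRNPK enrichment was 1.68 and 1.69, a mean of 1.69 ± 0.0028 (SD, n = 2), above 89.2% of analysed genes. This hnRNPK value has little room to be low, since a KMT2C FPKM of 0 in the RIP would still give 0.30 on this scale, by the construction of the measure for a gene of low input. The edgeR log2 fold change, which uses no such pseudocount on FPKM, was 2.38 ± 0.38 (SE, adjusted p = 6.39e-05). This fold change too is relative to the other genes tested. KMT2C also differed between the inputs by 0.97 in the log2 difference of FLAG-CBFB minus parental cells. With the inputs exchanged its CBFB enrichment was 0.58, against the parental input, and its hnRNPK enrichment 0.71, against the FLAG-CBFB cell input. Partial copies of KMT2C exist in the genome, and how the counting shared reads with them was not tested. Its expected counts were whole in all 5 libraries.

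Between these relatives, KMT2D exceeded KMT2C by 3.01 in CBFB enrichment and by 2.09 ± 0.11 (SD, n = 2) in hnRNPK enrichment. The hnRNPK difference was far larger than the spread of the repeats, but both repeats share 1 parental input. The SDs of hnRNPK values given here thus leave out the error of the input. With the other input hnRNPK enrichment was 3.58 for KMT2D and 0.71 for KMT2C. For CBFB there is 1 library per arm and so no spread.

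KMT2B and KMT2A, the pair that works with menin, differed in the same direction. KMT2B (chr19:35718019-35738878) had an FPKM of 11.3 in the FLAG-CBFB cell input, 24.5 in the FLAG RIP, 16.9 in the parental input and, with hnRNPK, 16.6 and 18.1. The FLAG RIP was above both inputs, and the hnRNPK RIPs lay on either side of their input while the average gene fell by 2.61 and 2.68 on the log2 scale. The centred enrichment was 2.39 (2.34 to 2.44) for CBFB and 2.58 and 2.77 for hnRNPK, mean 2.68 ± 0.13 (SD, n = 2), with an edgeR log2 fold change of 4.34 ± 0.39 (SE, adjusted p = 9.6e-08). The abundance-weighted length that enters the FPKM of KMT2B moved between 3305 and 4949 nt over the libraries.

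KMT2A (chr11:118436464-118526832), the MLL gene of leukaemia translocations, had an FPKM of 7.76 and 1.54 in the FLAG-CBFB cell input and RIP. Its parental input was at 6.71 and the hnRNPK RIPs at 2.03 and 2.29, so every RIP was below both inputs, as for KMT2C. Its CBFB enrichment was -0.45 (-0.52 to -0.37), below the average gene, and its hnRNPK enrichment was 1.26 and 1.45, mean 1.36 ± 0.13 (SD, n = 2). The edgeR log2 fold change of 2.21 ± 0.37 (SE, adjusted p = 8.9e-05) was the lowest of the SET domain genes. KMT2B exceeded KMT2A by 2.84 in CBFB enrichment and by 1.32 ± 0.0027 (SD, n = 2) in hnRNPK enrichment. That SD leaves out the error of the shared input. With the other input hnRNPK enrichment was 3.19 for KMT2B and 1.14 for KMT2A.

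MEN1 (chr11:64803510-64811294, minus strand), which encodes the menin scaffold of this branch, was the one non-catalytic member that followed the SET domain genes. Its FPKM was 19.4 in the FLAG-CBFB cell input and 18.2 in the FLAG RIP, and 26.7 in the parental input against 16.6 and 17.1 after hnRNPK RIP. Each RIP was thus below its own input, but by less than the average gene. The enrichment was 1.25 (1.19 to 1.31) for CBFB, above 92.3% of analysed genes. For hnRNPK it was 1.96 and 2.07, mean 2.01 ± 0.08 (SD, n = 2), so the repeats straddle the threshold. The edgeR log2 fold change was 3.31 ± 0.38 (SE, adjusted p = 1.64e-06).

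SETD1B and SETD1A, the methyltransferases of the promoter complexes that also hold CXXC1 and WDR82, both lay above the average gene in every RIP. SETD1B (chr12:121804180-121832584) had an FPKM of 4.46 in the FLAG-CBFB cell input and 12.3 in the FLAG RIP, and of 3.90 in the parental input against 9.68 and 7.45 after hnRNPK RIP. It shared with KMT2D the pattern of all RIPs above both inputs. Its enrichment was 2.63 (2.57 to 2.68) for CBFB and 3.73 and 3.47 for hnRNPK, mean 3.60 ± 0.19 (SD, n = 2), and its edgeR log2 fold change was 5.10 ± 0.42 (SE, adjusted p = 2.9e-08). On the enrichment scale an FPKM of 0 in the hnRNPK RIP would still give SETD1B 0.35.

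SETD1A (chr16:30957294-30984664) had an FPKM of 6.69 and 7.35 in the FLAG-CBFB cell input and RIP, 6.04 in the parental input and, with hnRNPK, 4.18 and 4.73. The FLAG RIP was slightly above its input and both hnRNPK RIPs were below theirs. The enrichment was 1.46 (1.40 to 1.52) for CBFB, under the threshold, and 2.17 and 2.38 for hnRNPK, mean 2.27 ± 0.15 (SD, n = 2), above it in both repeats. Its edgeR log2 fold change was 3.48 ± 0.40 (SE, adjusted p = 1.48e-06). SETD1B exceeded SETD1A by 1.17 in CBFB enrichment and by 1.32 ± 0.34 (SD, n = 2) in hnRNPK enrichment, the widest repeat spread of the 3 pairs. KMT2B, KMT2D, SETD1A and SETD1B were in the study's own PCR panel of transcripts called bound in these libraries. Their place above the threshold, which SETD1A reached for hnRNPK only, is thus not independent of that choice.

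KMT2E (chr7:105014179-105114361), whose SET domain has diverged from that of the active enzymes, had the widest gap between the proteins when each RIP was set against its own input. Exchanging the inputs gave a CBFB value of 1.065 and an hnRNPK value of 1.865, a smaller gap than that of MEN1 with 0.84 and 2.42. Its FPKM was 13.1 in the FLAG-CBFB cell input and 5.62 in the FLAG RIP, and 7.18 in the parental input against 8.42 and 6.45 after hnRNPK RIP. The FLAG RIP was below both inputs, while the hnRNPK RIPs lay around the parental input. The CBFB enrichment was 0.25 (0.19 to 0.31), and the hnRNPK enrichment was 2.81 and 2.54, mean 2.68 ± 0.19 (SD, n = 2), a difference of 2.43 between the proteins. The edgeR log2 fold change was 4.20 ± 0.40 (SE, adjusted p = 1.72e-07). KMT2E was 0.81 higher in the FLAG-CBFB cell input than in the parental input (log2, centred), the next difference in size after KMT2C. None of the 10 differed by more than 1 between the inputs, where 9.57% of analysed genes did, and 1.33% differed by more than 2.

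WDR5 and ASH2L, subunits of the shared platform, showed the lowest values of the 10 for hnRNPK. WDR5 (chr9:134135365-134159968), a WD40 repeat protein that docks the SET domain subunit, had an FPKM of 25.9 in the FLAG-CBFB cell input, 5.75 in the FLAG RIP, 29.1 in the parental input and, with hnRNPK, 1.66 and 1.75. All RIPs were well below both inputs. The enrichment was -0.65 (-0.73 to -0.57) for CBFB, with 15.7% of analysed genes lower, and -0.89 and -0.78 for hnRNPK, mean -0.83 ± 0.08 (SD, n = 2). For hnRNPK 29.4% of analysed genes were lower than WDR5. By edgeR its log2 fold change of -0.12 ± 0.34 (SE) did not pass the test (adjusted p = 0.81).

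ASH2L (chr8:38105242-38144076), which stimulates the activity of the SET domain subunit, had an FPKM of 18.9 and 6.61 in the FLAG-CBFB cell input and RIP, 17.6 in the parental input and, with hnRNPK, 0.69 and 0.47. The hnRNPK values rest on 149 and 93 expected counts against 2948 in the input. Its CBFB enrichment of -0.05 (-0.14 to 0.05) was not distinguishable from the average gene at this depth, and its hnRNPK enrichment was -0.85 and -0.98, mean -0.91 ± 0.09 (SD, n = 2). In edgeR its counts fell by 1.13 on the log2 scale (SE 0.36, adjusted p = 0.0181), a call that DESeq2 did not make (-1.06, adjusted p = 0.0774).

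**Figure D2:**
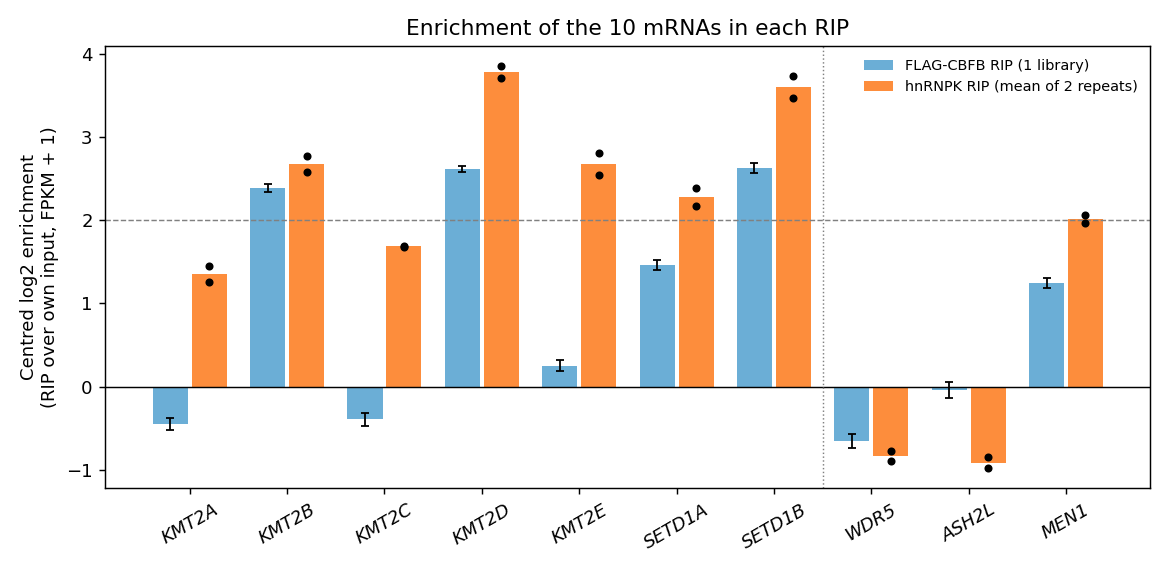
Centred log2 enrichment of each mRNA over its own input. Blue bars are the single FLAG-CBFB RIP with exact 95% counting intervals, orange bars are the mean of the 2 hnRNPK RIPs with each repeat as a black dot, the dashed line is the 4-fold threshold and the dotted line parts SET domain from non-catalytic genes. KMT2B, KMT2D and SETD1B pass the threshold for both proteins, and WDR5 and ASH2L lie below 0 for hnRNPK in both repeats.

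Ordered by hnRNPK enrichment, KMT2D exceeded SETD1B in both repeats, though their ranges overlapped. KMT2E and KMT2B changed order between the repeats, as did WDR5 and ASH2L. The ranges of SETD1A and MEN1, MEN1 and KMT2C, and KMT2C and KMT2A did not overlap. Over all 10 genes the repeats differed by at most 0.27, where the SD of this difference over the analysed genes was 0.35.

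The medians of the SET domain and the non-catalytic members lay apart in both RIPs, while single genes overlapped. The non-catalytic members include MEN1 and leave out RBBP5 and DPY30 of the shared platform. MEN1 was above KMT2A and KMT2C for both proteins and above KMT2E for CBFB, and ASH2L was above KMT2A and KMT2C for CBFB. The 7 SET domain genes had a median CBFB enrichment of 1.46 and a median hnRNPK enrichment of 2.68, and the 3 non-catalytic genes had -0.05 and -0.83. The difference of the medians was 1.50 for CBFB. For hnRNPK it was 3.43 and 3.32 in the repeats, a mean of 3.38 ± 0.08 (SD, n = 2), and it does not depend on the centring, which cancels. Above 2 were 3 of 7 SET domain genes for CBFB and 5 of 7 for hnRNPK, and 0 and 1 of the 3 non-catalytic genes, the one being MEN1. Over all analysed genes the shares were 4.37% for CBFB and 8.2% for hnRNPK. With 3 genes on one side, and MEN1 placed apart from WDR5 and ASH2L, the medians describe these genes and no wider class. The inputs did not part the groups, with a median FLAG-CBFB minus parental difference of 0.20 for the SET domain genes and -0.14 for the others.

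The rest of the complexes was read through 13 further subunits. Their median was -0.44 for CBFB and -0.51 for hnRNPK, and 1 of 13 was above 2 for either protein, where 4.37% and 8.2% of analysed genes were. By edgeR 2 were higher, 3 lower and 8 neither, against 24.6% higher and 14.3% lower over all analysed genes. The one above 2 was NCOA6, a nuclear receptor coactivator of the KMT2C and KMT2D complexes, at 2.51 for CBFB and 3.52 ± 0.0010 (SD, n = 2) for hnRNPK, beside KMT2D. The next were HCFC1, a host cell factor that joins several of the complexes, at 0.19 and 1.10 ± 0.35, and its relative HCFC2 at 0.06 and 0.93 ± 0.03, where an FPKM of 0 in the RIP would still give 0.71. At the low end were WDR82, the SETD1 partner, at -0.95 and -0.93 ± 0.0081, DPY30 of the shared platform at -0.06 and -2.01 ± 0.20, and PSIP1, which tethers menin to chromatin, at -0.60 and -1.60 ± 0.32. NCOA6 and HCFC1 were the 2 called higher, and DPY30, PSIP1 and BOD1L1, a SETD1A-associated protein named here after its values were seen, the 3 called lower. Of the shared platform, DPY30, WDR5 and ASH2L lay below the average gene for hnRNPK. RBBP5, the remaining platform subunit and also named beyond the rule, lay slightly above it, at 0.20 and 0.21, with -0.45 for CBFB, and its edgeR log2 fold change of 0.32 did not pass the test (adjusted p = 0.494).

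**Figure D3:**
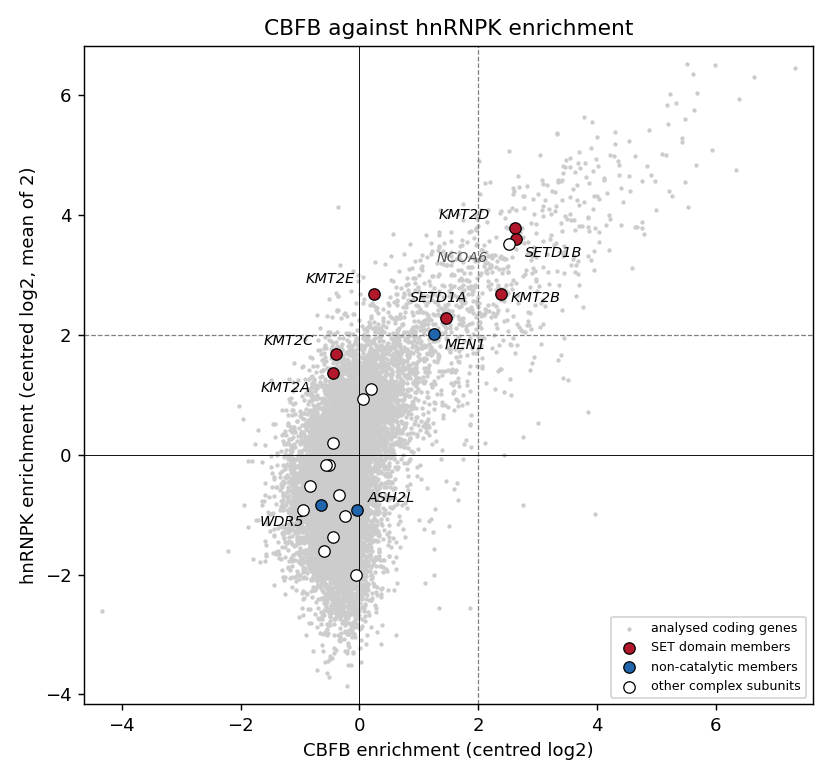
CBFB enrichment (x axis) against mean hnRNPK enrichment (y axis), both centred log2, for analysed coding genes (grey), SET domain members (red), non-catalytic members (blue) and 13 other subunits (white), with dashed lines at 4-fold. KMT2B, KMT2D, SETD1B and NCOA6 lie in the upper right quadrant, while KMT2A, KMT2C and KMT2E lie high for hnRNPK and near 0 for CBFB.

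Enzymes that act on the same mark in reverse served for comparison. The 5 H3K4 demethylase genes had a median of -0.68 for CBFB and -0.26 for hnRNPK, with 0 and 1 above 2, where 4.37% and 8.2% of analysed genes were. By edgeR 2 were higher, 1 lower and 2 neither, against 24.6% higher and 14.3% lower over all analysed genes. The difference between the SET domain genes and this list was not tested.

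The SET domain mRNAs shared features that the naming rule did not use, though the genes were proposed with earlier results of these data known. They were long: KMT2A, KMT2B, KMT2C and KMT2D were in the longest decile of the 10557 coding genes with models of 8469 to 19419 nt, and KMT2E, SETD1A and SETD1B, at 5969 to 6874 nt, in the decile below, whereas WDR5, ASH2L and MEN1 were near the median of 3104 nt. The SETD1B model in GENCODE 29 holds no 3′ UTR and is shorter than the 8194 nt used by the deposited table. For KMT2B, KMT2C and KMT2D the abundance-weighted lengths reached at most 58.4%, 64.5% and 36.5% of these models. The density of CCCC, counted on the mRNA strand of the models with overlapping windows, split the SET domain mRNAs further. It was 25.8 per kb in SETD1B, 24.0 in KMT2B, 20.3 in SETD1A and 19.1 in KMT2D, all 4 in the top decile of coding genes, which starts at 12.9. MEN1 had 9.84, KMT2A 7.09, WDR5 6.98, KMT2E 5.53, ASH2L 4.85 and KMT2C 4.27.

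The 3 genes above 4-fold in both RIPs were thus among the 4 with the most CCCC, and in 2 of the 3 pairs of relatives the denser mRNA was the more enriched. KMT2B had 3.38 times the density of KMT2A, and KMT2D 4.46 times that of KMT2C. For SETD1B and SETD1A the ratio was 1.27, but with no 3′ UTR in the SETD1B model it is not settled which of them is denser. Across genes, CCCC density had a Spearman correlation of 0.22 with CBFB enrichment and of 0.25 with hnRNPK enrichment over 10557 coding genes, which share libraries, inputs and base composition and are not independent replicates. Genes of the top decile had medians of 0.43 and 0.92, and 21.0% and 29.8% of them were above 2 for CBFB and hnRNPK. Among the 247 other genes with at least the density of KMT2D, a limit set after the values were seen, 40.9% and 48.6% were above 2, so high values were frequent among mRNAs of this composition and not particular to methyltransferases.

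Density did not order every member. KMT2E and ASH2L had much the same density and hnRNPK enrichments of 2.68 and -0.91, and KMT2A and WDR5 likewise had 1.36 and -0.83. Over the coding genes mRNA length correlated with hnRNPK enrichment at 0.30 and with CBFB enrichment at -0.31 (Spearman). In the longest decile the median was 0.34 for hnRNPK and -0.45 for CBFB, and 7.77% and 2.08% were above 2. KMT2A and KMT2C fall on the low CBFB side with those long mRNAs, and KMT2B and KMT2D do not. The part of length and of composition in these values was not tested.

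**Figure D4:**
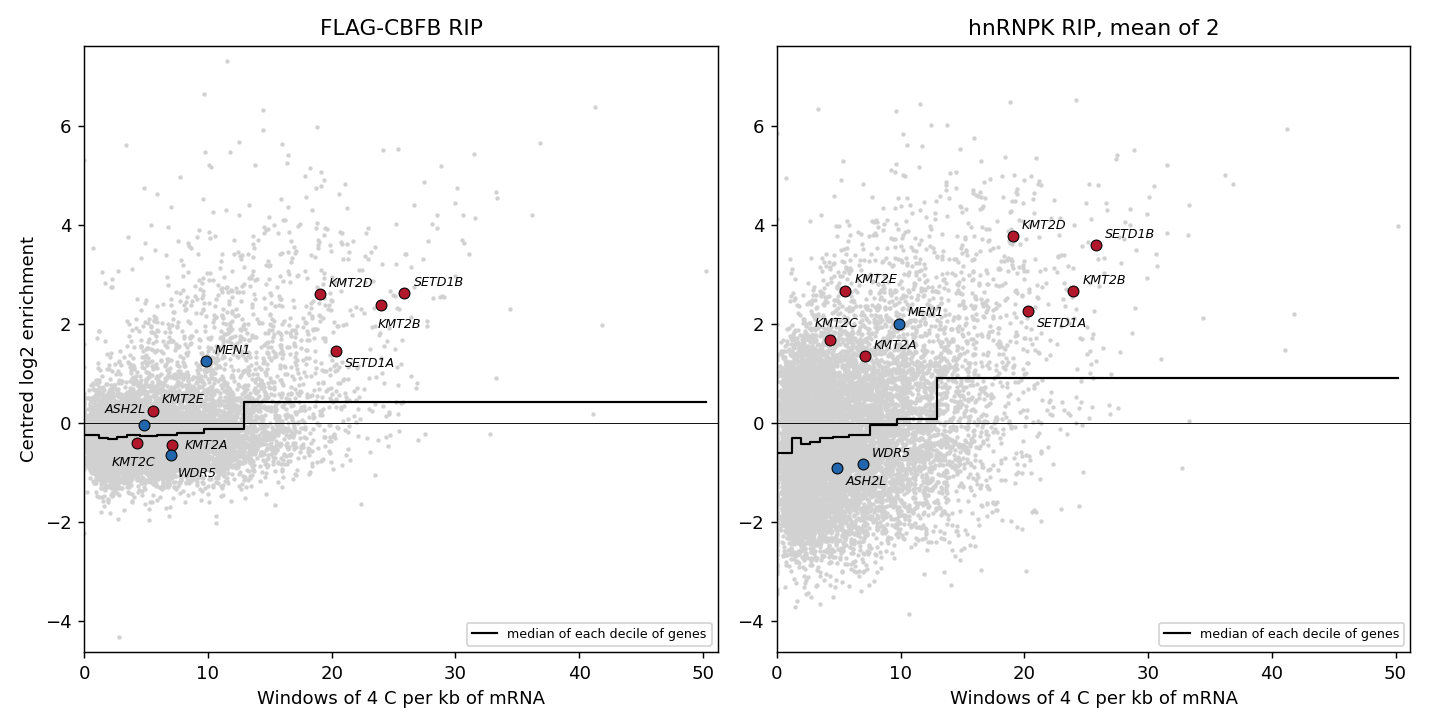
Centred log2 enrichment in the FLAG-CBFB RIP (left) and the hnRNPK RIPs (right, mean of 2) against the number of windows of 4 C per kb of mRNA, for analysed coding genes (grey), SET domain members (red) and non-catalytic members (blue), with the median of each decile of genes as a black line. KMT2B, KMT2D, SETD1A and SETD1B lie in the highest decile, and KMT2E lies further above the median line for hnRNPK than for CBFB.

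Genes outside the complexes with the same 3 enrichments were looked for by Euclidean distance among 9525 genes with at least 50 counts in each library. HOXC6, EIF4G2, CTDSP1, CHAMP1 and SAMD10 were nearest to the median of the SET domain genes, at distances of 0.10 to 0.19 log2 units, and UTP15, OMA1, GCFC2, STARD3NL and GPR89A to that of the non-catalytic genes, at 0.059 to 0.10. With 3 values per gene, such nearness describes a place on the plot of CBFB against hnRNPK enrichment and nothing else.

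Reads from overlapping genes could enter some of these values, since strand use in counting is not given in the sources used here. ASH2L shares 338 exonic nt with STAR on the opposite strand, WDR5 408 nt with BX649632.1, KMT2D 261 nt with DDN-AS1, and KMT2E 143 nt with KMT2E-AS1 and 98 nt with SRPK2. KMT2A shares 317 nt with AP001267.3 on the opposite strand and 5599 nt with AP001267.5 on its own strand, KMT2C 238 nt with FABP5P3, KMT2B 78 nt with IGFLR1 and SETD1A 35 nt with AC135048.4. SETD1B and MEN1 share none in GENCODE 29. Expected counts were fractional in 5 of 5 libraries for KMT2D, 4 for KMT2E, 3 for ASH2L and 2 for WDR5. They were whole for the other members. The source of the fractions was not tested.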

How the data were processed

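RIPseq libraries were made from MCF10A RNA extracted with Trizol, using a TruSeq mRNA kit. The authors quantified each library with RSEM, and their processing notes also name Trimmomatic, STAR and hg19, with no versions. The deposited expected counts are estimated reads per gene, and the deposited FPKM values are those per kilobase of effective transcript length, scaled to the fragments of the library. Annotation release and strand use were not given in the sources used here. Of 56632 identifiers, 50276 were named by identifier and 1221 through their transcripts in GENCODE 29 (GRCh38), which supplies all coordinates and sequences because the tables hold none.

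Samples were grouped by title. Enrichment used FPKM with a pseudocount of 1, which understates changes of weak genes before centring. Expected counts were rounded and tested with edgeR 4.0.16 (TMM, glmQLFTest), with DESeq2 1.42.0 as an alternative, in R 4.3.3. On simulated counts for this comparison over 11764 genes, edgeR recovered 4 of 50 genes changed 2-fold, 45 of 50 changed 4-fold and 50 of 50 changed 8-fold, and called 8 of 11564 unchanged genes. In that simulation all genes shared a common dispersion, and input and RIP were alike apart from the changed genes. It therefore does not test the scaling under the shift in mitochondrial share seen here. The hnRNPK repeats differed beyond sampling noise (chi-square per degree of freedom 88.3). Reads carry no molecular identifiers used here. A coactivator gene list and 2 of the sequences are not reported here. The members, gene lists and tests were chosen with earlier results of these data known. Named genes were the 10 members, the 3 highest and 3 lowest of the 13 other subunits by mean enrichment, the controls RUNX1 and GAPDH, and the 5 genes most alike each group.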

Additional observations from a re-analysis of the deposited data

Results flagged for a closer look

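KMT2A and KMT2C lay on opposite sides of the average gene in the different RIPs. For KMT2A, the hnRNPK enrichment exceeded the CBFB enrichment by 1.80 log2 units, and for KMT2C by 2.08. In both genes each hnRNPK repeat was above 0 and the single FLAG-CBFB RIP was below it. For KMT2C the hnRNPK sign was set by the scale, since an FPKM of 0 in the RIP would still give 0.30. The difference was not tested, since CBFB has 1 library per arm. The opposite signs rest on the centring, because the FPKM of both genes was lower in every RIP than in either input. With the inputs exchanged, KMT2C had 0.58 for CBFB and 0.71 for hnRNPK, which leaves little of its difference. KMT2A then had -0.23 and 1.14.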

How the results depend on the processing

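Without centring the median CBFB and hnRNPK enrichments were -0.59 and -0.50 and 0 members passed 4-fold for either protein. Centring over all genes of the tables gave -0.27 and 0.11 and again 0 members for either. The median CBFB enrichment was 0.92 with a pseudocount of 0.1, 0.94 with centring on the median, 1.44 with a mean FPKM of at least 5, which leaves out KMT2A and KMT2C, 0.92 after rescaling without mitochondrial genes, 1.33 with TMM-scaled and 1.38 with DESeq2-scaled log2 CPM, and 0.95 with the other input. The median hnRNPK enrichment was 2.90, 2.93, 2.96, 3.26, 3.43 and 1.99 in the same settings except centring on the median, which kept it within the repeat spread. It was 2.06 to 2.22 when either hnRNPK repeat was left out, with 5 to 6 members above 4-fold. At a 2-fold threshold 5 members passed for CBFB. With the other input 2 passed 4-fold for CBFB, without KMT2B, and 5 for hnRNPK, without KMT2E. With either log2 CPM 4 passed for CBFB, SETD1A added, and 8 for hnRNPK, KMT2A and KMT2C added. With the pseudocount of 0.1 or without mitochondrial genes KMT2C was added for hnRNPK, making 7. The SET domain minus non-catalytic difference stayed above 0 in each setting run. For CBFB it was 2.44 with the FPKM minimum of 5 and 2.20 with either log2 CPM. For hnRNPK it was 3.93 with the pseudocount of 0.1, 3.60 with the minimum of 5, 3.88 without mitochondrial genes, 4.31 with either log2 CPM and 2.82 with the other input, and 3.32 to 3.43 with a repeat left out.

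Single genes changed sign as follows. Without centring, hnRNPK enrichment was -1.29 for KMT2A, -0.96 for KMT2C, -0.37 for SETD1A and -0.63 for MEN1, and CBFB enrichment was -1.09 for KMT2E and -0.092 for MEN1. Centred over all genes, hnRNPK enrichment was -0.68 for KMT2A, -0.35 for KMT2C and -0.021 for MEN1, and CBFB enrichment was -0.77 for KMT2E. CBFB enrichment of KMT2C was 0.58 with the other input. That of ASH2L was 0.065 with the pseudocount of 0.1, 0.14 centred on the median, 0.036 with the minimum of 5, 0.083 without mitochondrial genes and 0.084 with the other input.

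Of the members, 8 were called higher and 1 lower in each of 4 alternative edgeR fits, while DESeq2 called 8 higher and 0 lower. Over all genes edgeR called 2891 higher and 1677 lower (63.3% higher), DESeq2 2795 and 846 (76.8%), and edgeR with no filter 3328 and 3443 (49.2%). Leaving out a repeat from edgeR was not run, since 1 library against 1 leaves no residual degrees of freedom. No paired analysis was possible because each input is a single library and so shares at most 1 number with its RIP.

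CBFB values have no replicate error, and the single input of each line enters all of its enrichments. No mock immunoprecipitation was analysed, so RNA that binds beads or antibody cannot be told apart from RNA that comes with the protein. Values of the weakly expressed KMT2A, KMT2C, SETD1A and SETD1B have a high lower bound on the log2(FPKM + 1) scale.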
